A study of Mus musculus with 2 samples.

Results

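Foxp3-positive T cell barcodes were examined in 2 single-cell libraries of ulcerated mouse skin. A barcode was taken as a member when it had at least 200 genes and at most 15% mitochondrial unique molecular identifiers (UMIs, each standing for 1 captured RNA molecule), at least 1 UMI of Cd3e, Cd3d or Cd3g, at least 1 UMI of Foxp3 and no Csf1r UMI. Calprotectin genes (S100a8 and S100a9) had to hold under 1% of its UMIs, and collagen genes (Col1a1, Col1a2 and Col3a1) under 0.3%. The rule found 68 members among 31252 barcodes that passed the gene and mitochondrial limits. Of these members, 45 were among the 14415 such barcodes of the library labelled Has2-transgenic and 23 among the 16837 of the wild-type library.

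Regulatory T cells are CD4 T cells that restrain other immune cells, and the transcription factor Foxp3 maintains their programme. They carry high levels of the interleukin-2 receptor alpha chain (Il2ra) and of Ctla4, which takes B7 ligands from antigen-presenting cells. In skin and other barrier tissues, many of them express the interleukin-33 receptor (Il1rl1) together with Klrg1 and Gata3. Such cells can produce amphiregulin (Areg), an epidermal growth factor receptor ligand known for its part in tissue repair.

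The study compared lesional skin of a mouse line with whole-body overexpression of Has2, a hyaluronan synthase, with that of wild-type mice. Both samples carry the label of ulcerative dermatitis brought on by scratching, modelled with tape stripping on 15 days in a row at 40 to 50 strips a day. The treatment label starts in mid-sentence, so an earlier step shared by both samples may be missing from it, and the labels give neither the age of the mice nor the promoter that drives Has2. Each genotype had 1 library, which means that effects of the genotype, of the individual mouse and of library preparation cannot be told apart. Differences between the libraries are given as values without a test.

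The library labelled Has2-transgenic held 134917708 UMIs in 14622 barcodes and the wild-type library 143875454 UMIs in 16999 barcodes. Has2 was found at 85.8 CPM (counts per 1000000 UMIs) over all kept barcodes of the library labelled Has2-transgenic and at 71.5 CPM in the wild-type library. Among members it was found as 3 UMIs in 1 transgenic barcode and not at all in the wild-type ones. The 2 libraries shared 79 barcode sequences, none of which belonged to a member. Each member's depth was modest. Members had a median of 3652 UMIs (range 1759 to 15251) in the transgenic library and 2712 UMIs (range 1280 to 16052) in the wild-type library. In sum they held 188602 transgenic UMIs and 86256 wild-type UMIs.

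Foxp3, the gene that chose the members, was read as 203 UMIs in the 45 transgenic members and 88 UMIs in the 23 wild-type members, or 1076 and 1020 CPM. The median member had 4 Foxp3 UMIs in the transgenic library and 3 in the wild-type library, and 42 transgenic and 18 wild-type members had at least 2. Members just inside the rule, with 1 Foxp3 UMI, numbered 3 in the transgenic library and 5 in the wild-type library. Just outside it, 37 transgenic and 40 wild-type barcodes had Foxp3 but no Cd3 UMI, and 33 and 36 of these had a single Foxp3 UMI. A further 9 transgenic and 8 wild-type barcodes had Foxp3 and Cd3 but failed on Csf1r, calprotectin or collagen. Those that failed on calprotectin began at 1.90% of UMIs in the transgenic library and 2.67% in the wild-type library, whereas members reached at most 0.534% and 0.0723%. On collagen, failing barcodes began at 0.994% and 0.392%, and members reached at most 0.0732% and 0.0371%.

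Foxp3 was rarely read in neutrophil, macrophage and fibroblast barcodes. Barcodes rich in calprotectin, as neutrophils are, had a Foxp3 UMI in 0 of 4875 transgenic and 2 of 5950 wild-type cases. Among barcodes with Csf1r, a macrophage receptor gene, the share was 0.408% (17 barcodes) in the transgenic library and 0.382% (18 barcodes) in the wild-type library, at median depths of 7602 and 9118 UMIs. Collagen-rich barcodes had it in 0.410% and 0.422% of cases. Among T barcodes with Trdc, it was found in 2 of 46 transgenic cases (4.35%), which had at least 2 Foxp3 UMIs each, and in 1 of 136 wild-type cases (0.735%). Among T barcodes that met every part of the rule except Foxp3, the share was 31.9% in the transgenic library and 9.16% in the wild-type library, at median depths of 3317 and 3881 UMIs.

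Most members carried regulatory T cell genes that the rule did not use. Il2ra alone does not tell members from gamma-delta T barcodes (with Trdc and without Foxp3), of which 81.8% in the transgenic and 86.7% in the wild-type library had it. Ctla4 was in 38 of 45 transgenic and 20 of 23 wild-type members, and in 1 of 44 and 7 of 135 gamma-delta barcodes. Il2ra or Ctla4 was detected in 44 of 45 transgenic members and in 23 of 23 wild-type members, and no member lacked Il2ra, Ctla4 and Ikzf2 (the transcription factor Helios) all at once. The coreceptor Cd4 was seen in 21 transgenic and 14 wild-type members and Cd8a in none, and no member had a UMI of any of the 5 B cell markers. Cd4 was also in 20 of 41 transgenic and 16 of 73 wild-type Foxp3-negative alpha-beta T barcodes, which are defined below. Trdc, the gamma-delta receptor constant gene, was present in 2 transgenic members and 1 wild-type member. That wild-type barcode held all 18 UMIs of the 6 gamma-delta markers found in wild-type members. It had 1 Foxp3 UMI and none of Ctla4 or Ikzf2, and counts among the 23 above through 5 Il2ra UMIs alone.

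A single transgenic member stood apart. It carried 688 UMIs of mast cell or basophil markers, namely 348 of Tpsb2, 194 of Mcpt4 and 146 of Cpa3, which were 6.05% of its 11369 UMIs, beside 6 Foxp3 UMIs and 1 Cd3 UMI. Mcpt8 and Ms4a2, the other markers of that list, were at 0 in it, and no other member in either library had a UMI of any of the 5. It held all 26 Il4 and all 14 Il13 UMIs of the transgenic members, 89 of their 106 UMIs of Hdc (histidine decarboxylase, which makes histamine) and 72 of their 106 Klf2 UMIs. Whether it is 1 cell or several captured together was not tested, and results that rest on it are given with and without it.

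Markers of other cell types were mostly low but present. The summed level of the 7 neutrophil markers was 737 CPM in transgenic members and 243 CPM in wild-type members, and 94 of the 139 transgenic UMIs were of Il1r2, which is on that list and is also a decoy receptor for interleukin-1 found on activated regulatory T cells. The other neutrophil markers with most UMIs in members were S100a9, with 30 transgenic UMIs, 83.3% of them in 1 barcode, and 9 wild-type UMIs, and S100a8 with 5 in each. Lcn2 was at 0 in both. Keratinocyte markers came to 339 CPM in transgenic members, with 61 of 64 UMIs in a single barcode, and to 0 in wild-type members. Of the 10 macrophage or monocyte markers, 6 were at 0 in transgenic members and 9 in wild-type members. The 5 endothelial markers, of which 4 were at 0 in members of each library, came to 90.1 CPM in transgenic and 220 CPM in wild-type members. Over all kept barcodes they came to 152 and 172 CPM. The wild-type level was 19 UMIs in 12 members. Muscle markers came to 21.2 and 11.6 CPM in members, from 4 and 1 UMIs, against 10.9 and 6.08 CPM over all kept barcodes.

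Regulatory T barcodes made up a larger part of the T barcodes in the library labelled Has2-transgenic. There, 45 of 141 T barcodes were members, or 31.9% (95% exact binomial interval 24.3 to 40.3%), against 23 of 251, or 9.16% (5.90 to 13.4%), in the wild-type library. The transgenic share was 3.48 times the wild-type share (exact interval 2.06 to 6.03). As a share of all kept barcodes, members were 0.312% in the transgenic library and 0.137% in the wild-type library, a ratio of 2.29 (1.35 to 3.96). The intervals here and below cover counting error alone and not the variation between mice, of which there was 1 library on each side.

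Other T barcodes did not follow the same pattern. Foxp3-negative alpha-beta T barcodes, with at least 1 UMI of Trac, Trbc1 or Trbc2 and none of Trdc or Foxp3, were 29.1% of T barcodes in both libraries (41 transgenic and 73 wild-type barcodes). As a share of all kept barcodes they were lower in the transgenic library, with 0.284% against 0.434%, a ratio of 0.656 (0.436 to 0.975). Gamma-delta T barcodes, with Trdc and without Foxp3, were 31.2% in the transgenic library and 53.8% in the wild-type library, a ratio of 0.580 (0.403 to 0.821). T barcodes as a whole were 0.978% of kept barcodes in the transgenic library and 1.49% in the wild-type library. Within members and Foxp3-negative alpha-beta barcodes together, members were 52.3% in the transgenic library and 24.0% in the wild-type library, a ratio of 2.18 (1.29 to 3.78). Gamma-delta cells may remain among the Foxp3-negative alpha-beta barcodes, here and in the comparisons below. A gamma-delta marker was found in 11 of the 41 transgenic and 16 of the 73 wild-type ones, and a Trdv segment in 3 and 6. Trbc2 was also read in 29 of 44 transgenic and 110 of 135 wild-type gamma-delta barcodes. Their part in the ratio was not tested. In a single random draw, every barcode was thinned to 1000 UMIs and the rule applied again. Then 31 of 120 transgenic and 8 of 191 wild-type T barcodes were members, a ratio of 6.17 (2.77 to 15.5). That interval does not cover the variation between draws. In another draw, made on members alone, Foxp3 remained in 34 of 45 transgenic and 17 of 23 wild-type members.

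**Figure D1:**
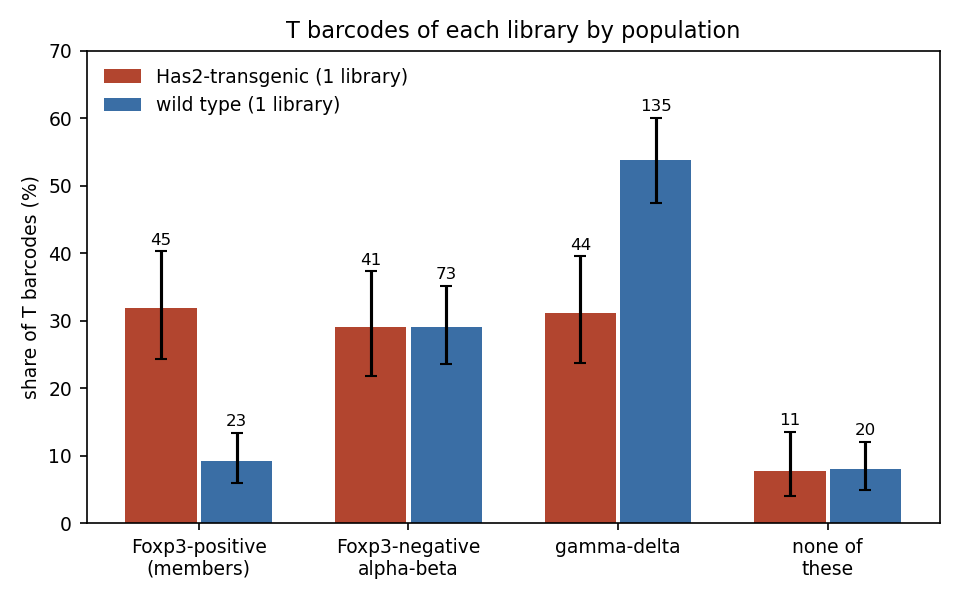
Share of the T barcodes of each library (vertical axis, %) that fell in each population, for the library labelled Has2-transgenic (red) and the wild-type library (blue). Bars are shares with exact 95% binomial intervals for counting error, and the digits are numbers of barcodes. Members took 31.9% of transgenic and 9.16% of wild-type T barcodes, while Foxp3-negative alpha-beta barcodes took 29.1% of both.

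To describe what members expressed beyond the genes of the rule, their summed UMIs were compared with those of the Foxp3-negative alpha-beta T barcodes of the same library. Each library gave 1 pair of sums, and edgeR's quasi-likelihood test with library as a block was run on 3683 genes, with Benjamini-Hochberg adjustment and 0.05 as the threshold. Genes of the rule were left out. It called 189 genes higher in members, which is 5.13% of those tested, and 207 lower, which is 5.62%. Of the 396, 390 moved the same way in both libraries. The test had 1 residual degree of freedom, and the spread it used was pooled over genes. A small p-value therefore does not show that the 2 libraries were alike for that gene. DESeq2 on the same sums called 42 genes, all of them among the 396, so each gene that DESeq2 also called is named as such below.

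Most genes of the regulatory T cell identity list rose. Of its 14 genes, 12 were tested, 10 rose and none fell, with a median log2 difference of 1.77 against -0.03 over all genes tested. DESeq2 called 5 of the 10. The median and count are a description, since the lists were chosen with results of these data known. Ikzf2 had 1225 CPM in transgenic and 1356 CPM in wild-type members, against 134 and 119 CPM in the Foxp3-negative barcodes of the same libraries. Gamma-delta barcodes were also low, with 135 CPM in the transgenic library and 237 CPM in the wild-type library. The log2 difference was 3.26 (adjusted p = 2.46e-27 by edgeR's quasi-likelihood test, also called by DESeq2).

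Il2ra stood at 1601 CPM in transgenic and 1530 CPM in wild-type members, against 483 and 255 CPM in Foxp3-negative alpha-beta barcodes, a log2 difference of 2.05 (edgeR adjusted p = 8.17e-15, also called by DESeq2). It was not restricted to members among T barcodes, because gamma-delta barcodes reached 1263 CPM in the transgenic library and 1052 CPM in the wild-type library. Ctla4, in contrast, had 997 CPM in transgenic and 1159 CPM in wild-type members and only 5.64 and 10.3 CPM in gamma-delta barcodes. Against Foxp3-negative alpha-beta barcodes, at 361 and 123 CPM, its log2 difference was 2.19 (edgeR adjusted p = 9.69e-14, also called by DESeq2).

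The tumour necrosis factor receptors of the list, which deliver costimulation, were high as well. Tnfrsf9 (4-1BB) had 1930 CPM in transgenic and 1739 CPM in wild-type members, against 436 and 265 CPM in Foxp3-negative barcodes, a log2 difference of 2.33 that both tools called. Tnfrsf4 (OX40) rose as well (edgeR adjusted p = 1.47e-06, also called by DESeq2), and Tnfrsf18 (GITR) rose by 1.22 on the log2 scale and was called by edgeR alone. The other genes that rose were Ikzf4 (the factor Eos) by 2.53, Izumo1r (folate receptor 4) by 4.61, Tigit, an inhibitory receptor, by 1.38 and Icos, a costimulatory receptor, by 0.90, all by edgeR alone. Nrp1 and the actin-capping gene Capg did not pass, with log2 differences of 0.00 and 0.68. Tnfrsf9 and Icos were not restricted to members among T barcodes. Tnfrsf9 was detected in 77.3% of transgenic and 83.0% of wild-type gamma-delta barcodes, and Icos in 90.9% and 92.6%. Ikzf4 was in 22.7% and 11.1% of them, Tnfrsf18 in 11.4% and 5.19%, and Tigit in 9.09% and 6.67%. Tnfrsf4 was in 0% and 1.48%, and Izumo1r in 0% of both.

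**Figure D2:**
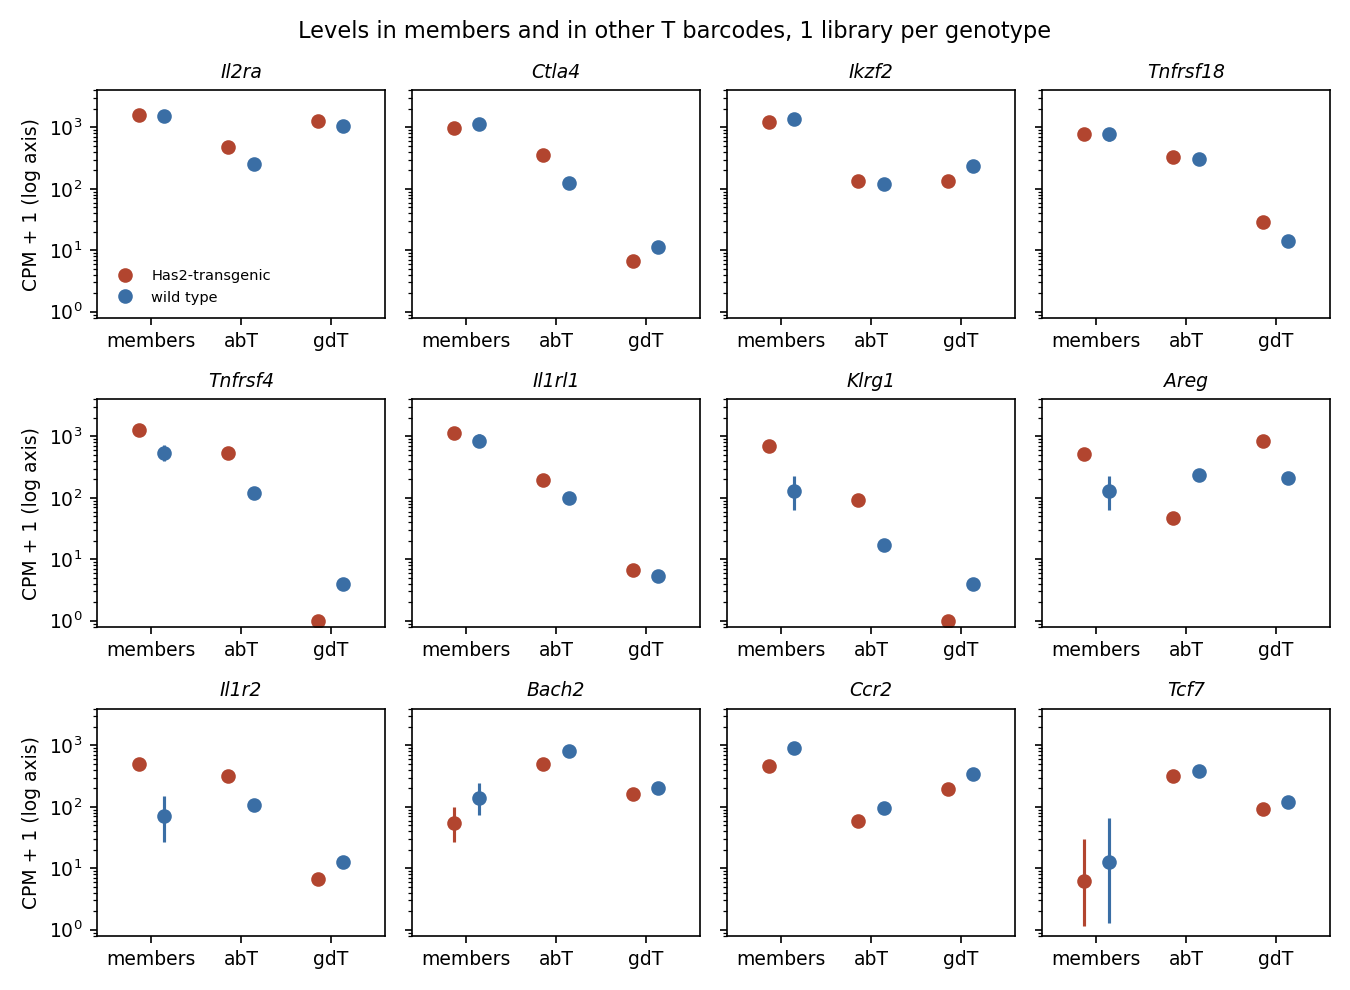
Summed level of 12 genes, as CPM + 1 on a log axis, in members, in Foxp3-negative alpha-beta T barcodes (abT) and in gamma-delta T barcodes (gdT) of the library labelled Has2-transgenic (red) and the wild-type library (blue). Points are sums over the barcodes of 1 library, and vertical lines on members are exact 95% Poisson intervals. Ctla4, Tnfrsf18 and Il1rl1 were high in members and near the floor in gamma-delta barcodes, Klrg1 and Il1r2 differed between the libraries, and Tcf7 was low in members of both.

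Of 16 suppressive molecules, 11 had enough UMIs to be tested, 3 rose and none fell. Itgb8, the integrin chain that activates latent TGF-beta, was nearly absent from the Foxp3-negative barcodes. It was read as 50 UMIs in 14 transgenic members and 21 UMIs in 6 wild-type members, against 4 UMIs in 1 barcode and 0 UMIs in the Foxp3-negative sums, a log2 difference of 4.63 that both tools called. Gzmb, a cytotoxic protease, rose by 0.84 and Lgals1, a galectin that can dampen T cells, by 0.93, both by edgeR alone. The Gzmb call was near the threshold (edgeR adjusted p = 0.0436) and was kept in 4 of 13 alternatives.

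Other suppressive genes were present without a call. Tgfb1 had 329 CPM in transgenic and 313 CPM in wild-type members, against 268 CPM in Foxp3-negative barcodes of either library. Il10, the anti-inflammatory cytokine, was found as 1 UMI in each library's members. Il12a was not detected in any member, and Lag3 was found as 1 UMI in each library.

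Genes of the tissue regulatory T cell programme also differed. Of 16 genes, 14 were tested, 6 rose and 1 fell. Il1rl1, the receptor for the alarmin interleukin-33, had 1129 CPM in transgenic and 858 CPM in wild-type members, against 192 and 96.8 CPM in Foxp3-negative barcodes and 5.64 and 4.40 CPM in gamma-delta barcodes. The log2 difference was 2.74 (edgeR adjusted p = 7.29e-19, also called by DESeq2). Klrg1, an inhibitory lectin-like receptor that marks terminally differentiated tissue cells, rose by 2.82, and Itgae, the integrin chain CD103 that binds E-cadherin on epithelium, by 2.05, both also by DESeq2. The transcription factors Batf and Maf rose by 1.92 and 1.28 by edgeR alone. Itgae and Maf were shared with gamma-delta barcodes. Itgae was detected in 52.3% of transgenic and 55.6% of wild-type gamma-delta barcodes, against 77.8% and 52.2% of members. For Maf the shares were 56.8% and 69.6%, against 55.6% and 56.5% of members. Batf was in 29.5% and 34.8% of gamma-delta barcodes, against 55.6% and 47.8% of members, and Klrg1 in 0% and 1.48% of gamma-delta barcodes.

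Il18r1, the interleukin-18 receptor chain, was the gene of this list that fell. It had 318 CPM in transgenic and 313 CPM in wild-type members, against 605 and 519 CPM in Foxp3-negative barcodes (log2 difference -0.93, edgeR adjusted p = 0.0127). Gata3, Ccr8 and Rora did not pass, with log2 differences of 0.55, 0.89 and -0.04.

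Areg levels differed between the libraries. In the transgenic library it had 509 CPM in members and 46.5 CPM in Foxp3-negative alpha-beta barcodes, a ratio of 10.9 (5.34 to 26.1). In the wild-type library it had 128 CPM in members and 232 CPM in Foxp3-negative barcodes, a ratio of 0.549 (0.262 to 1.04), and 73.6% of the 72 UMIs behind the wild-type Foxp3-negative level were in 1 barcode. By detection, 18 of 45 transgenic members had Areg against 3 of 41 Foxp3-negative barcodes, and 4 of 23 wild-type members had it against 7 of 73. EdgeR called Areg higher in members over both libraries (log2 difference 1.10, adjusted p = 0.00876), but the summed levels point in opposite directions in the libraries, and 5 of 13 alternatives kept the call. Without the member rich in mast cell markers, which held no Areg UMI, the log2 difference was 1.15 (edgeR adjusted p = 0.0845). Gamma-delta barcodes had 851 CPM in the transgenic library and 208 CPM in the wild-type library. Areg was detected in 12 of 44 and 24 of 135 of them, and 1 barcode each held 52.3% and 42.3% of the UMIs.

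The list of resting and lymph node homing genes was split. Of its 12 genes, all tested, 2 rose and 4 fell. Tcf7, the transcription factor TCF1 of naive and memory-like T cells, was found as 1 UMI in each library's members, or 5.30 CPM in transgenic and 11.6 CPM in wild-type members, against 314 and 377 CPM in Foxp3-negative barcodes (log2 difference -5.48, edgeR adjusted p = 1.17e-19, also called by DESeq2). Bach2, a repressor that holds T cells in a quiescent state, fell by 2.97 and was called by both tools, and Satb1 and Ly6c1 fell by 0.74 and 2.01 by edgeR alone. The Satb1 call was near the threshold (edgeR adjusted p = 0.0485) and was kept in 4 of 13 alternatives. For Ly6c1, kept in 7 of 11, 64.3% of the transgenic and 91.5% of the wild-type Foxp3-negative UMIs were in 1 barcode each, and it was detected in 2 of 23 wild-type members against 4 of 73 Foxp3-negative barcodes.

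Klf2, which controls exit from lymphoid tissue, had 562 CPM in transgenic and 162 CPM in wild-type members, against 174 and 96.8 CPM in Foxp3-negative barcodes. It rose by 1.24 (edgeR adjusted p = 0.0021), but the difference was 0.29 (adjusted p = 0.748) without the member rich in mast cell markers. Lef1, S1pr1, Il7r, Foxo1, Foxp1 and Ccr7 did not pass.

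Of 20 chemokine receptor and adhesion genes, 17 were tested, 4 rose and 3 fell. Ccr2, which follows monocyte chemoattractants, had 467 CPM in transgenic and 904 CPM in wild-type members, against 58.2 and 93.6 CPM in Foxp3-negative barcodes (log2 difference 3.07, called by both tools). Ccr6, the receptor for Ccl20, rose by 2.21 and the integrin chain Itgb7 by 1.42 by edgeR alone, and Itgae is counted here too. Cxcr6 fell by 1.19, and the integrin chains Itga4 and Itgb1 by 2.15 and 1.11, by edgeR alone.

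Signalling genes downstream of these receptors moved in part. In the interleukin-2 and STAT5 list, 12 of 14 genes were tested and 4 rose, namely Il2ra, the STAT5 targets Cish and Socs2, by 1.21 and 1.83, and the kinase Pim1, by 0.99. In the TNF receptor and NF-kB list, all 13 were tested, 6 rose and 1 fell. Beside the 3 receptors above, Cd27, a costimulatory receptor, rose by 1.54, the adaptor Traf1 by 0.82 and the NF-kB inhibitor Nfkbia by 0.69, while the deubiquitinase Tnfaip3 fell by 0.89. In the T cell receptor signalling list, 13 of 16 were tested, Cd5, a brake on receptor signalling, rose by 1.18, and 1 gene fell. Apart from Il2ra, Tnfrsf9 and Tnfrsf4, each of these was called by edgeR alone. The Tnfaip3 call was kept in 6 of 13 alternatives and the Socs2 call in 6 of 11.

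Of 18 genes of other helper programmes, 3 were tested, none rose and 1 fell. Il12rb2, an interleukin-12 receptor chain of type 1 helper cells, had no UMI in members of either library (edgeR adjusted p = 9.14e-07). Foxp3-negative barcodes had 17 transgenic and 31 wild-type UMIs of it. With the libraries pooled and 3 counts over both as the floor, it was at least 9.13-fold lower in members. Il1r1 and Il23r, receptors for interleukin-1 and interleukin-23, did not pass, with log2 differences of 0.35 and -0.48. Tbx21, Ifng, Il2, Il17f, Il21 and Il22 had no UMI in any member. Il17a was found as 3 UMIs in 1 wild-type member.

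Few genes of the remaining lists passed. In the cell cycle list, 4 of 16 genes were tested, and Mcm6, a replication helicase subunit, and Top2a, a topoisomerase of dividing cells, rose by 1.85 and 1.61. The Top2a call was kept in 3 of 10 alternatives. Mki67, the proliferation marker, was detected in 6 of 45 transgenic and 2 of 23 wild-type members. In the interferon list, 7 of 20 were tested, and 3 rose, among them Gbp7, an interferon-induced GTPase, by 2.04 and Ly6a (Sca-1) by 0.99. Of 9 glycolysis and hypoxia genes tested, Pkm, a pyruvate kinase, rose by 1.01, and none of 10 handling and immediate early genes passed. None of these was called by DESeq2.

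Outside the lists, the genes with the largest rises were chosen by size among those that passed. Tnfrsf8 (CD30) had 33 transgenic and 13 wild-type UMIs in members, against 1 and 1 in Foxp3-negative barcodes, a log2 difference of 4.96 that both tools called. Neb, which encodes the muscle protein nebulin, was detected in 25 of 45 transgenic and 17 of 23 wild-type members, against 2 of 41 and 6 of 73 Foxp3-negative barcodes (log2 difference 4.05, called by both tools). Ankrd55, at 4.27, and Frmd5, at 3.31, were also called by both. Msrb3 (3.93), the triglyceride synthesis enzyme Dgat2 (3.58), Tnfrsf13b (TACI, 3.45) and Rpap3 (3.27) were called by edgeR alone. Hdc had a log2 difference of 5.62 with all members and of 4.18 (edgeR adjusted p = 0.00165) without the member rich in mast cell markers, when 17 transgenic and 7 wild-type UMIs remained. Of those 17, 16 were in a single barcode, which also had the highest share of other cell types' markers among members (0.950% of its UMIs).

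The largest falls included Ccl5 and Klrd1, genes of effector and cytotoxic T cells. CD8 markers came to 10.6 CPM in transgenic and 0 in wild-type members, against 81.4 CPM (3 barcodes) and 177 CPM (13 barcodes) in Foxp3-negative barcodes. Against the Foxp3-negative barcodes with Cd4 and without CD8 genes, Ccl5, Klrd1, Ly6c2, Plac8 and St3gal6 did not have enough UMIs to be tested. Ccl5, a chemokine of such cells, was read as 4 transgenic and 1 wild-type UMIs in members, against 199 and 271 in Foxp3-negative barcodes (log2 difference -5.94, edgeR adjusted p = 4.48e-39, also called by DESeq2). Klrd1 (CD94), Ly6c2, Plac8 and St3gal6 had no UMI in any member and were called by edgeR alone. With the libraries pooled and 3 counts over both as the floor, they were at least 7.99-, 14.4-, 28.7- and 6.65-fold lower than in Foxp3-negative barcodes. Single libraries set weaker bounds. For Ly6c2, the interval of members over Foxp3-negative barcodes reached 0.328 in the transgenic and 0.213 in the wild-type library. Cstdc5 and Plet1, which complete the list, came from few reference barcodes. Of the 142 Cstdc5 UMIs of the transgenic Foxp3-negative sum, 99.3% were in 1 barcode, and in the wild-type sum all 38 were in 1. Plet1, which DESeq2 also called, was found in 1 transgenic and 2 wild-type Foxp3-negative barcodes. The same reference sums carried 5687 CPM of keratinocyte markers in the transgenic library and 400 CPM in the wild-type library, of which 974 of 978 and 120 of 124 UMIs lay in a single barcode each.

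**Figure D3:**
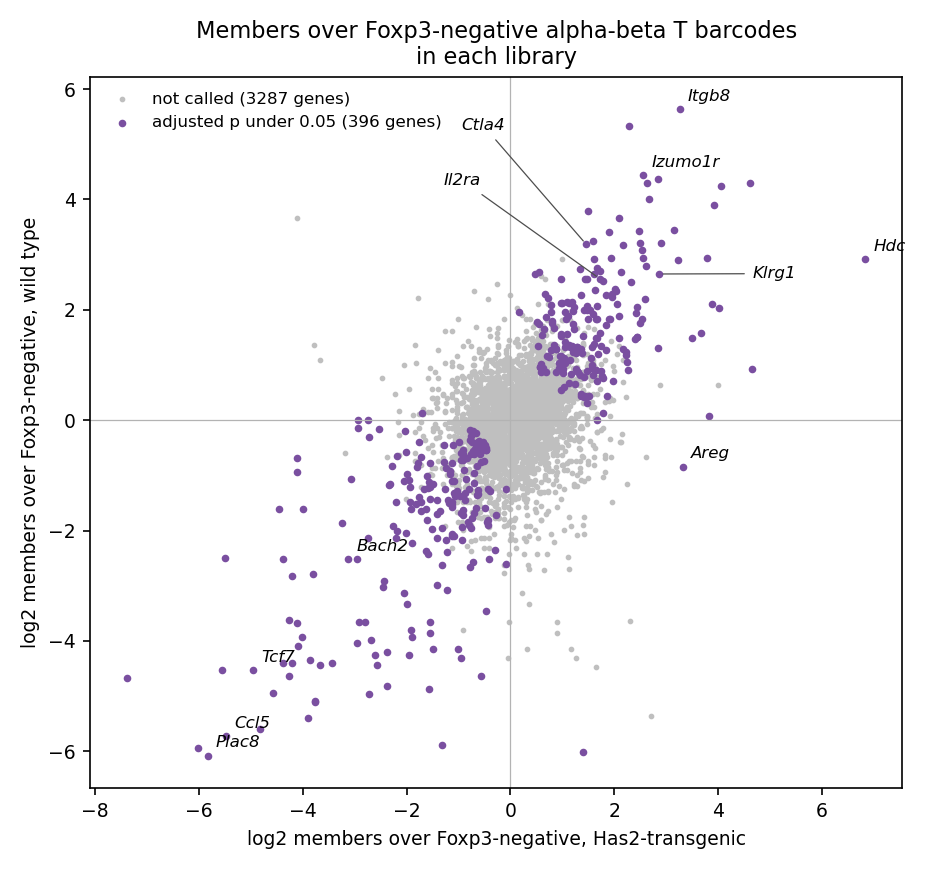
For each of 3683 genes, the log2 ratio of members over Foxp3-negative alpha-beta T barcodes in the library labelled Has2-transgenic (horizontal axis) and in the wild-type library (vertical axis), with 5 CPM added to each level. Purple points passed an edgeR adjusted p of 0.05 over both libraries. Of these 396 genes, 390 lie in the upper right or lower left, and Areg lies in the lower right.

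Between the libraries, 10 of the 12 measured identity genes did not meet the rule for fold and interval given below in members. Over 2735 genes with at least 20 UMIs in members of both libraries together, the median log2 ratio of the transgenic over the wild-type library was -0.04, and 47.8% were higher in the transgenic library. A gene was set aside as past the fold when it differed at least 2-fold with a 95% interval that left out 1, which held for 159 genes (5.81%) higher and 96 (3.51%) lower in transgenic members. Of 12 measured identity genes, 6 were higher and 6 lower, and 1 was past the fold in each direction, with a median log2 ratio of -0.06. The ratio was 1.05 (0.850 to 1.29) for Il2ra, 0.860 (0.671 to 1.11) for Ctla4, 0.903 (0.720 to 1.14) for Ikzf2 and 1.02 (0.763 to 1.39) for Tnfrsf18. Farther from 1 were Capg, at 1.78 (1.17 to 2.80), and Nrp1, at 0.422 (0.176 to 1.004).

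Tnfrsf4 and Izumo1r were the identity genes past the fold. Tnfrsf4 had 1257 CPM in transgenic members (237 UMIs in 37 barcodes) and 545 CPM in wild-type members (47 UMIs in 14 barcodes), a ratio of 2.31 (1.68 to 3.22). Foxp3-negative alpha-beta barcodes differed in the same direction, with 547 CPM in the transgenic and 119 CPM in the wild-type library. Izumo1r was found as 11 UMIs in 9 transgenic members and 15 UMIs in 6 wild-type members, a ratio of 0.335 (0.139 to 0.781).

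In the tissue programme, Klrg1 and Areg stood out. Of 13 measured genes, 10 were higher in transgenic members and 2 were past the fold, with a median log2 ratio of 0.39. Klrg1 was read as 133 UMIs in 28 of 45 transgenic members and 11 UMIs in 5 of 23 wild-type members, or 705 CPM (590 to 836) and 128 CPM (63.7 to 228). The ratio was 5.53 (2.99 to 11.3), and it lay between 5.14 and 7.92 in the alternatives. In Foxp3-negative alpha-beta barcodes, Klrg1 had 93.0 CPM in the transgenic and 16.1 CPM in the wild-type library. After thinning each barcode to 1000 UMIs, Klrg1 was detected in 35.6% (21.9 to 51.2%) of transgenic and 4.35% (0.110 to 21.9%) of wild-type members.

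Areg, the other such gene, was read as 96 UMIs in 18 transgenic members and 11 UMIs in 4 wild-type members, or 509 CPM (412 to 622) and 128 CPM (63.7 to 228), a ratio of 3.99 (2.13 to 8.26). A single barcode held 8 of the 11 wild-type UMIs, and without the barcode with most UMIs on each side the ratio was 8.91. The barcode rich in mast cell markers held none of them. Il1rl1 had a ratio of 1.32 (1.01 to 1.74), which was 1.28 (0.971 to 1.69) without that barcode. Rora, a nuclear receptor of tissue lymphocytes, had 1299 CPM in transgenic and 661 CPM in wild-type members, a ratio of 1.97 (1.47 to 2.67), and Itgae a ratio of 1.49 (1.05 to 2.13). Gata3, Maf and Prdm1 were on the lower side, and each interval included 1.

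**Figure D4:**
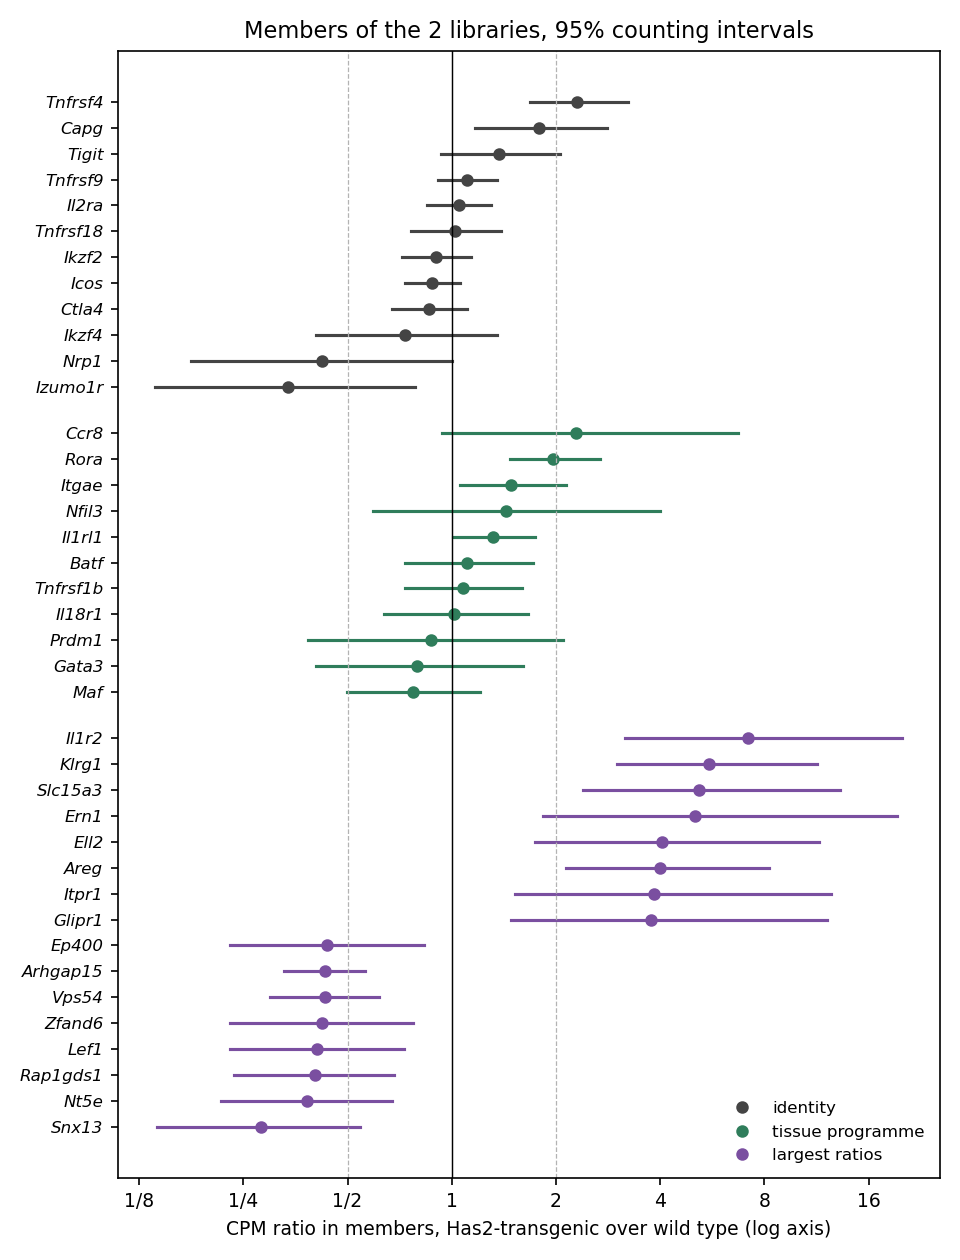
Ratio of the CPM in members of the library labelled Has2-transgenic over that in wild-type members (horizontal log axis) for measured identity genes (grey), the other measured tissue programme genes (green) and the 16 genes named by size, Klrg1 and Areg among them (purple). Points are ratios of sums from 1 library each, lines are exact 95% intervals for counting error, and dashed lines mark 2-fold. Il2ra, Ctla4, Ikzf2 and Tnfrsf18 lie near 1, while Klrg1 and Il1r2 lie above 5.

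Among suppressive genes, 9 of 11 measured were higher in transgenic members, mostly by little, with a median log2 ratio of 0.10. Il1r2 had the largest ratio of the genes named by size. It was read as 94 UMIs in 26 transgenic members, and as 6 UMIs in 3 wild-type members, or 498 and 69.6 CPM, a ratio of 7.17 (3.17 to 20.02). A single barcode held 66.7% of the wild-type UMIs, and the ratio was 15.4 without the barcode with most UMIs on each side. Foxp3-negative alpha-beta barcodes had 320 CPM in the transgenic and 106 CPM in the wild-type library. Those levels came from 6 transgenic and 4 wild-type barcodes, with 54.5% and 75.8% of the UMIs in 1 barcode each. S100a9, a gene of neutrophils like Il1r2, had 30 UMIs in 6 transgenic members and 9 UMIs in 8 wild-type members, and the part of neutrophil RNA in the Il1r2 values was not tested. Nt5e (CD73), which makes adenosine, was lower, with 133 CPM in transgenic and 348 CPM in wild-type members, a ratio of 0.381 (0.215 to 0.670).

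In the list of TNF receptors and NF-kB, 11 of 13 genes were higher in transgenic members, with a median log2 ratio of 0.23. Rel, the NF-kB subunit c-Rel, had 350 CPM in transgenic and 116 CPM in wild-type members, a ratio of 3.02 (1.54 to 6.59). The 2 lower genes were Nfkb1, at 0.648 (0.469 to 0.900), and Birc3, an inhibitor of apoptosis, at 0.601 (0.411 to 0.883). In the interleukin-2 list, 6 of 10 measured genes were higher, and Il2rg, the common gamma chain shared by several cytokine receptors, had 1188 CPM in transgenic and 580 CPM in wild-type members, a ratio of 2.05 (1.502 to 2.84).

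Of the resting and lymph node homing genes, 7 of 10 measured were lower in transgenic members, with a median log2 ratio of -0.11 against -0.04 over all genes, and 3 were past the fold on that side. Lef1, a partner of TCF1, had 133 CPM in transgenic and 325 CPM in wild-type members, a ratio of 0.408 (0.228 to 0.726), and in Foxp3-negative barcodes 105 and 242 CPM. S1pr1, the receptor for exit into blood, had a ratio of 0.374 (0.189 to 0.731) and Bach2 one of 0.381 (0.147 to 0.963). Klf2, in contrast, had a ratio of 3.46 with all members and 1.18 (0.618 to 2.38) without the barcode rich in mast cell markers.

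Among chemokine receptors, 10 of 17 measured genes were higher and 7 lower, with a median log2 ratio of 0.08. Cxcr3, a receptor for interferon-induced chemokines, was found as 9 UMIs in 5 transgenic members and 13 UMIs in 6 wild-type members, a ratio of 0.317 (0.119 to 0.801). Ccr2 had a ratio of 0.516 (0.376 to 0.709). Ccr8, a receptor of skin-resident T cells, was found in 13 of 45 transgenic and 4 of 23 wild-type members, and the interval of its ratio, 0.937 to 6.72, included 1.

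Other lists were measured in few genes or rested on few barcodes. Of 18 helper genes, 3 were measured, and Il4 was past the fold through the barcode rich in mast cell markers alone. Of 11 T cell receptor signalling genes measured, 6 were higher and 5 lower, and 1 was past the fold, on the lower side. Of 6 interferon response genes measured, 5 were lower in transgenic members, with a median log2 ratio of -0.47, and none was past the fold. Of 9 glycolysis and hypoxia genes, 4 were higher, and Aldoa, a glycolytic aldolase, was past the fold at 2.32 (1.49 to 3.77). Of 5 cell cycle genes measured, Mki67 was past the fold in 1 direction, with 22 transgenic UMIs of which 68.2% were in 1 barcode and 2 wild-type UMIs. Pcna was past it in the other, and its ratio turned from 0.395 to 1.08 without the barcode with most UMIs in each library.

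Immediate early and heat shock genes were higher in 9 of 11 cases, with a median log2 ratio of 0.79, which did not change when genes at 0 were set to 3 counts. Their UMIs were concentrated. Fos was found as 33 UMIs in 4 transgenic members, with 87.9% in 1 barcode, and Hspa1a as 60 UMIs in 5 transgenic members, with 88.3% in 1. Neither had a UMI in wild-type members. These genes respond to tissue dissociation, and their part in other differences was not tested.

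Of the remaining genes named by size, those higher in transgenic members were Slc15a3, an endolysosomal peptide transporter, at a ratio of 5.16 (2.39 to 13.3), Ern1, the stress sensor IRE1 of the endoplasmic reticulum, at 5.03 (1.83 to 19.3), the transcription elongation factor Ell2 at 4.04 (1.74 to 11.5), the calcium channel gene Itpr1 at 3.84 (1.52 to 12.4) and Glipr1 at 3.75 (1.48 to 12.2). Each was found in 18 to 30 transgenic and 2 to 6 wild-type members. For Ern1, a single barcode held 3 of the 4 wild-type UMIs, and the ratio was 14.8 without the barcode with most UMIs on each side. Those lower were Snx13 at 0.281 (0.141 to 0.545), Rap1gds1 at 0.402 (0.235 to 0.683), Zfand6 at 0.421 (0.228 to 0.773), Vps54 at 0.430 (0.299 to 0.617), Arhgap15 at 0.430 (0.328 to 0.563) and Ep400 at 0.437 (0.228 to 0.832). For Arhgap15, a regulator of the GTPase Rac, Foxp3-negative alpha-beta barcodes differed alike, with 506 CPM in the transgenic and 1139 CPM in the wild-type library.

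Within each library, members were not uniform. Il1rl1 was detected in 28 of 45 transgenic and 13 of 23 wild-type members. Il1rl1 and Klrg1 were found together in 21 transgenic members (46.7%, 31.7 to 62.1%) and 4 wild-type members (17.4%, 4.95 to 38.8%). Gata3 was seen in 16 transgenic members, 14 of which had Il1rl1, and in 7 wild-type members, 6 of which had it. Areg did not follow Il1rl1, since 10 transgenic members had both and 8 had Areg alone, and 1 wild-type member had both and 3 had Areg alone.

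Members with Il1rl1 differed in depth little from those without it in the transgenic library, with medians of 3686.5 and 3445 UMIs, and more in the wild-type library, with 3500 and 2645 UMIs. In the transgenic library, Il2ra had 2213 CPM in members with Il1rl1 and 688 CPM in those without, and Tnfrsf4 had 1717 and 569 CPM. In the wild-type library, Il2ra had 1672 CPM in members with Il1rl1 and 1333 CPM in those without, and Tnfrsf4 had 478 and 639 CPM. The wild-type levels without Il1rl1 rested largely on 1 barcode of 16052 UMIs. It held 34 of their 48 Il2ra UMIs and 16 of their 23 Tnfrsf4 UMIs. Among transgenic members with Il1rl1, 1 barcode held 70 of 250 Il2ra UMIs and 52 of 194 Tnfrsf4 UMIs. Ctla4 lay between 947 and 1222 CPM in all 4 groups. Since barcodes of 1 library are not replicates, these are descriptions without a test.

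**Figure D5:**
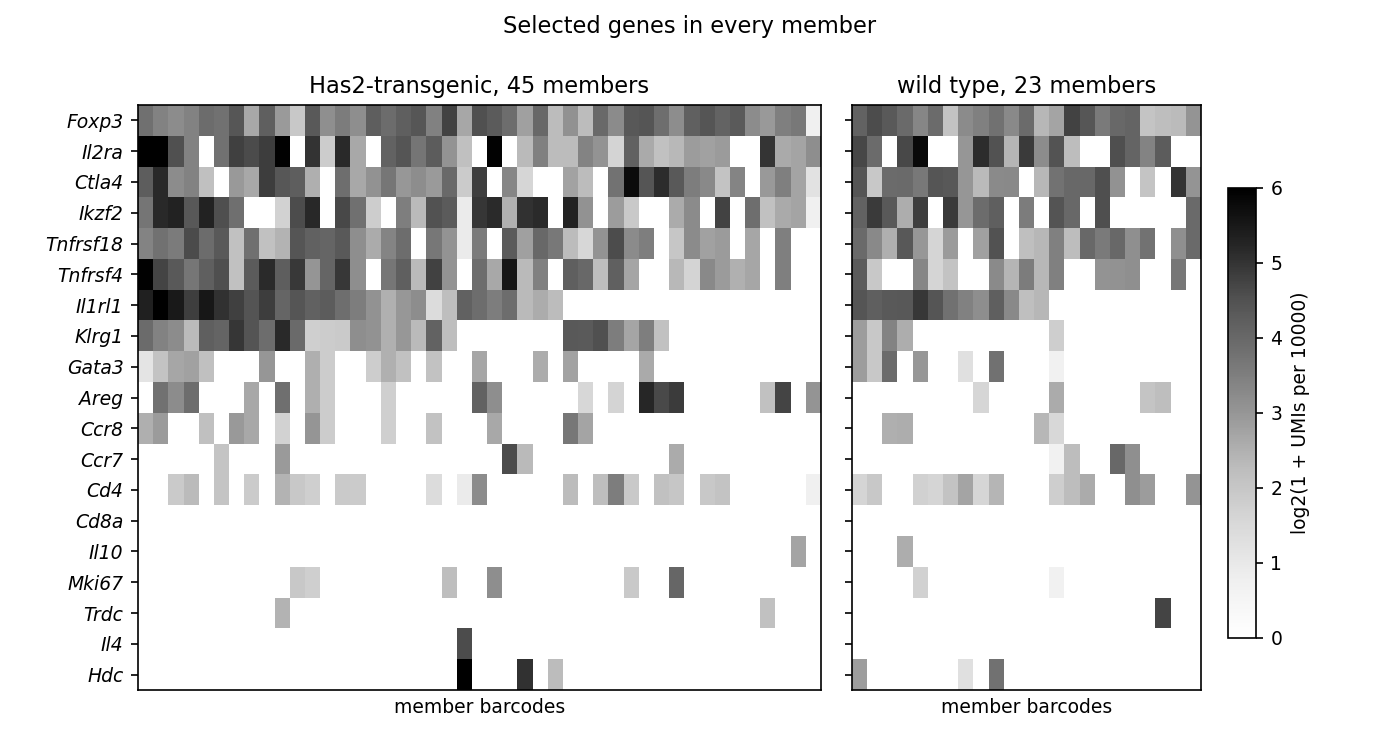
UMIs per 10000 of 19 genes in every member, as log2(1 + value) in grey (scale at right), with the 45 transgenic members on the left and the 23 wild-type members on the right. Columns are member barcodes, ordered by Il1rl1 and Klrg1, and rows are genes. Il2ra, Ctla4 and Ikzf2 fill most columns of both libraries, Klrg1 fills 28 transgenic and 5 wild-type columns, and Il4 fills 1 transgenic column.

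T cell receptor segments were read only in part by the gene expression library. They were counted as segment genes, and clonal descent was not tested. A Trbv segment was found in 42 of 45 transgenic members, with 15 different segments, and in 14 of 23 wild-type members, with 8. Trbv3, the most frequent in transgenic members, was in 9 of them, and Trbv31, the most frequent in wild-type members, in 3. Both a Trav and a Trbv segment were found in 15 transgenic and 4 wild-type members, and every one of these pairs was different within its library. Trgv6, found in 27 of 44 transgenic and 83 of 135 wild-type gamma-delta barcodes, was seen in no transgenic member and 1 wild-type member.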

How the data were processed

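The data were 1 10x Genomics GEM-X 5' single-cell library per genotype, of the library labelled Has2-transgenic and the wild-type library. The deposited values were raw UMI counts for each gene in each barcode called as a cell. The submitters' processing notes name Cell Ranger 9.0.1 as the tool and GRCm39 as the build. The molecule label differs (polyA RNA for the transgenic sample, total RNA for the wild type), while the protocol text is the same. Whether introns were counted is not given in the sources used here.

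Counts were read with SciPy 1.17.1 and summed over barcodes. CPM are relative to all UMIs of a population, with exact Poisson intervals. Ratios have exact conditional and shares exact Clopper-Pearson intervals (95%). List medians use 0.5 added counts. The 4 sums were tested with edgeR 4.0.16 (TMM, filterByExpr, library as block), with DESeq2 1.42.0 as an alternative. On simulated counts at this size, the code was tested for recovery of known changes. Scrublet in Scanpy 1.11.5 marked 0% of transgenic and 1.37% of wild-type kept barcodes, and members were not filtered by it. As an alternative, the 843 transgenic and 1145 wild-type barcodes with the highest scores were left out, among them 1 transgenic member.

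The members and gene lists were chosen with earlier results of these data known. Genes named are those of the marker row, list members past a threshold and up to 4 others with most UMIs, the 12 largest rises and 8 largest falls against Foxp3-negative barcodes that passed, moved alike in both libraries and had at least 20 UMIs in the higher population, and the 8 largest ratios in each direction between libraries with at least 40 UMIs, an interval without 1, under 30% of the higher library's UMIs in 1 barcode, and a level in its members at least that over all its kept barcodes. Genes outside this rule were named after their values were seen, as were the genes of the member rich in mast cell markers. Segment, ribosomal, mitochondrial, haemoglobin, immunoglobulin and sex-linked genes were left out of the naming. Some genes of the lists are counted but not reported here by name. P-values rest on a spread pooled over genes, from 2 libraries that also differ in genotype. The prior degrees of freedom came out infinite, so a gene's own spread between the libraries had no weight in them.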

Additional observations from a re-analysis of the deposited data

How the results depend on the processing

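No paired analysis was possible because each genotype had 1 library; this concerns the genotype comparison, while members and Foxp3-negative barcodes were compared with library as a block. The larger share of regulatory T barcodes in the transgenic library kept its direction in every alternative run, with ratios from 3.20 to 6.17 over all T barcodes and 2.30 over T barcodes with an alpha-beta constant segment and no Trdc UMI. The highest was after a single random thinning to 1000 UMIs, when 31 transgenic and 8 wild-type members remained. Against Foxp3-negative alpha-beta barcodes, edgeR called 396 genes, and it called 171 with at least 2 Cd3 UMIs, 172 with gamma-delta sums added, 144 against Cd4-positive barcodes without Cd8 (95 higher and 49 lower) and 81 after thinning, when 822 genes were tested. DESeq2 called 42. All 64 named genes kept their direction in every alternative that tested them, and 18 passed in DESeq2. The number of genes past the fold between the libraries was 255, and 43 after thinning, when 597 were measured. Pcna turned to a ratio of 1.08 without the barcode with most UMIs in each library. Without the barcode rich in mast cell markers, 369 genes were called against Foxp3-negative barcodes and 231 were past the fold. The cause of the other changes was not tested. Leaving out barcodes with over 1% of markers of other types or of mast cells was chosen after seeing the data, as were dropping the limits on Csf1r, calprotectin and collagen and requiring an alpha-beta constant segment. Depth limits the ratios of low genes: for Ern1, with 44 transgenic and 4 wild-type UMIs, the interval ran from 1.83 to 19.3.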
